A study of Mus musculus with 4 samples.

Results

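H3K27ac, the acetylated form of lysine 27 of histone H3 found at active promoters and enhancers, was examined at 10 genes of extracellular matrix turnover in isolated mouse liver sinusoidal endothelial cells (LSECs). The genes were 6 matrix metalloproteinases (*Mmp2*, *Mmp8*, *Mmp9*, *Mmp14*, *Mmp15*, and *Mmp23*), 3 tissue inhibitors of metalloproteinases (*Timp1*, *Timp2*, and *Timp3*), and *Adamts1*, out of 21887 protein-coding genes in the GRCm38 annotation. They were chosen by name, and each was described by the peaks in its gene body plus 10 kb on each side. A peak within 1 kb of either end of the gene was called a gene-end peak, and any other peak in that window was called distal. Peaks of the 2 libraries that overlapped by at least 1 bp were called shared. Peaks of both libraries that overlapped were joined into 1 region, so a region could hold several peaks.

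The series has 2 H3K27ac libraries of LSECs, named replicates 2 and 3 after the numbers in their titles, and an input library of unprecipitated chromatin with each number. The inputs were not analysed here. The titles of the H3K27ac libraries name no condition, so both were treated as 1 condition. The sample records do not give the genotype, age, sex, or treatment of the mice. The methods describe LSECs purified from perfused livers with anti-CD146 beads and kept in culture for some hours on a collagen-coated surface. They name 3 kinds of donor mouse, *Col4a1* fl/wt mice, the same mice with *Cdh5* CreERT2 (a tamoxifen-inducible Cre driven by an endothelial promoter), and *Cdh5* CreERT2 mice that carry *dCas9-KRAB*, without stating which of these gave the libraries. No record shows that the replicates came from separate animals. With 1 condition, no comparison between conditions and no test was made, and counts of genes are set beside the share of all protein-coding genes.

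The replicate 2 list held 26975 peaks and the replicate 3 list 64498. A replicate 3 peak overlapped 99.2% of replicate 2 peaks, whereas a replicate 2 peak overlapped 37.7% of replicate 3 peaks. Read counts were not given, so the depth of either library is unknown, and a gene without a replicate 2 peak may still have carried the mark below the calling threshold. The label of the cells was set beside counts of marker genes. These marker lists were chosen with earlier results of these data known, so the counts are no independent check of the label. All 13 LSEC markers had a gene-end peak, 9 of them in both libraries and 4 in replicate 3 only, against 44.1% and 9.81% of all protein-coding genes. None of 6 Kupffer cell markers had one in either library. Of 8 hepatic stellate cell markers, 0 had a shared gene-end peak and 2, *Col1a1* and *Acta2*, had one in replicate 3 only. Of 7 neutrophil markers, *S100a8* had a shared gene-end peak and *Camp* had one in replicate 3 only. Of 7 hepatocyte markers, *Trf* had a shared one and *Apoa1* and *Apob* had one in replicate 3 only, and of 4 cholangiocyte markers *Epcam* had one in replicate 3 only. Shared distal regions were also counted, against 39.3% of all protein-coding genes. They were found at all 13 LSEC markers, 2 of 8 stellate cell, 2 of 7 neutrophil, and 2 of 7 hepatocyte markers. No Kupffer cell or cholangiocyte marker had a shared distal region.

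Matrix metalloproteinases are zinc-dependent enzymes that cut collagens and other matrix proteins, and TIMPs bind their active site and block them. *Mmp2* and *Mmp9* encode the gelatinases, which cut denatured collagen and the type IV collagen of basement membranes. *Mmp14* and *Mmp15* encode membrane-anchored enzymes, and the *Mmp14* product, together with TIMP2, activates the *Mmp2* proenzyme at the cell surface. *Adamts1* encodes a secreted protease of a related family that cuts proteoglycans such as versican and aggrecan.

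The 10 genes differed widely in H3K27ac. *Adamts1* and *Timp3* had a shared region at a gene end, which is 2 of 10 genes, against 44.1% of all protein-coding genes. *Mmp14*, *Mmp15*, *Timp1*, and *Timp2* had a gene-end peak in replicate 3 only, which is 4 of 10 genes, against 9.81%. Counted from replicate 3 alone, 6 of 10 genes had a gene-end region, against 53.9%, and counted from replicate 2 alone, 2 of 10, against 44.1%. Shared distal regions were found at *Mmp9*, *Mmp14*, *Mmp23*, and *Timp3*, which is 4 of 10 genes, against 39.3%. A distal region with a replicate 3 peak only was found at 7 genes, against 52.7%. Any replicate 3 region was found at 8 genes, against 69.9%. *Mmp2* and *Mmp8* had no peak of either library in their windows, as did 30.0% of all protein-coding genes. With only 10 genes these shares are coarse, and none was tested.

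In all, the windows held 48 regions, of which 11 were shared and 37 had a replicate 3 peak only. No region had a replicate 2 peak only. The shared regions comprised 3 at gene ends and 8 distal ones. The 15 replicate 2 peaks all overlapped a replicate 3 peak. Of the 48 replicate 3 peaks, 22.9% had a replicate 2 peak, compared with 37.7% over the whole replicate 3 list. No shared region was found at 5 of the 10 genes, against 41.5% of all protein-coding genes. The median number of shared regions per gene was 0.5 in the set and 1.00 over all protein-coding genes. Per 100 kb of window the medians were 1.41 and 1.59, the first being the midpoint between the 5 genes at 0 and *Mmp9* at 2.81.

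**Figure D1:**
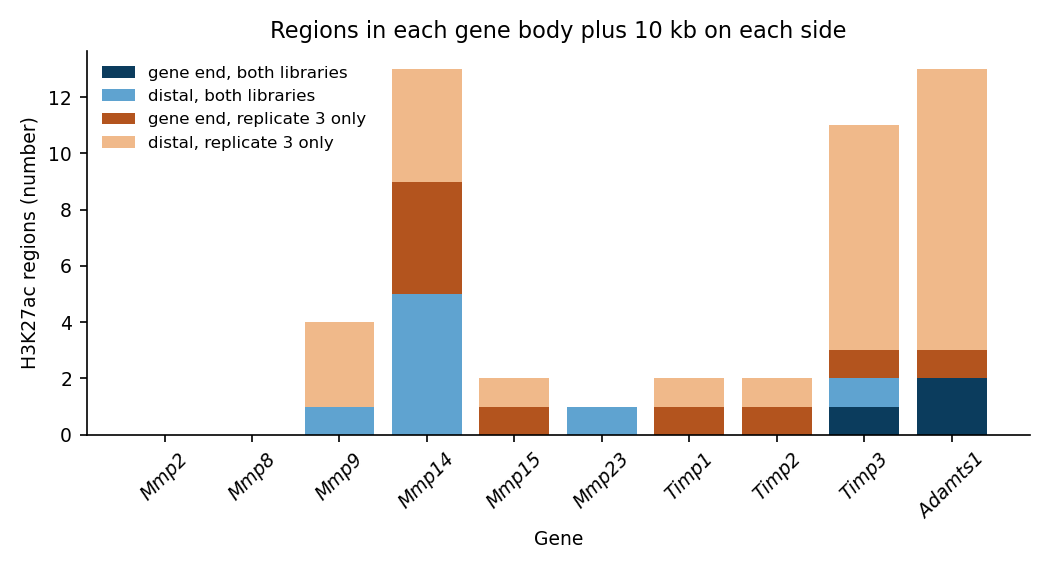
Number of H3K27ac regions (y axis) in the body plus 10 kb on each side of each of the 10 genes (x axis), stacked by position and by library. *Mmp14* and *Adamts1* each had 13 regions and *Timp3* 11, the other genes had at most 4, and *Mmp2* and *Mmp8* had 0.

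Promoter sequences of 8 of the 10 genes were in the RefSeq promoter table (GRCm38.p6). *Mmp2* and *Mmp9* were not matched. The 250 bases upstream of the annotated 5′ end are shown for the 2 genes with a shared gene-end region and for the 2 whose replicate 3 gene-end peak was strongest among the others, since these windows lie in or beside the peaks described next. Capitals mark the GC box (GGGCGG or its complement CCGCCC) and, in *Adamts1*, also the TATA box (TATAAA). The windows are chr16:85803114-85803363 on the minus strand for *Adamts1*, chr10:86300162-86300411 on the plus strand for *Timp3*, chr14:54431348-54431597 on the plus strand for *Mmp14*, and chrX:20869916-20870165 on the plus strand for *Timp1*.
Adamts1: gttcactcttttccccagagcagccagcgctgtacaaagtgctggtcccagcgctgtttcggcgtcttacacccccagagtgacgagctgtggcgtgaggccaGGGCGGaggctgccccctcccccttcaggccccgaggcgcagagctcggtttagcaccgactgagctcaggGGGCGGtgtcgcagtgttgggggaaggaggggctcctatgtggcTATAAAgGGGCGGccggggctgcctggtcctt
Timp3: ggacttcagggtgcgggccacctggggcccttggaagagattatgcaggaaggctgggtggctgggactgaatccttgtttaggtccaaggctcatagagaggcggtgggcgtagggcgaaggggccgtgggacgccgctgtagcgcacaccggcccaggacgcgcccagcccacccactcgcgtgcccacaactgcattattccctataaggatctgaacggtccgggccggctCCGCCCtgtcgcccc
Mmp14: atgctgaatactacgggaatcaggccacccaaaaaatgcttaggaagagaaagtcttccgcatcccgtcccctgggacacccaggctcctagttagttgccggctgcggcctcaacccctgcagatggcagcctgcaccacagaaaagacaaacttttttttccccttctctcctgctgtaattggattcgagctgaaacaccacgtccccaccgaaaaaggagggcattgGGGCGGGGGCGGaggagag
Timp1: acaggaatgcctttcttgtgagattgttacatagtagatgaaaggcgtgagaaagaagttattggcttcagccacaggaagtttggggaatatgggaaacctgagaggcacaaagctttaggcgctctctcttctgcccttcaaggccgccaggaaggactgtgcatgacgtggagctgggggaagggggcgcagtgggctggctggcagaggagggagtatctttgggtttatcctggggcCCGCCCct
A GC box lay in the upstream window of *Adamts1*, *Timp3*, *Mmp14*, *Timp1*, *Timp2*, and *Mmp15*, the 6 genes with a replicate 3 gene-end region, and in neither *Mmp8* nor the 2 windows of *Mmp23*, which had none. The *Mmp23* windows, at 155653291 to 155653540 and 155653385 to 155653634, lie inside the gene body used here. They therefore refer to other start sites than the 5′ end at which its gene-end peaks were counted. Of all 32851 promoter windows of this length, 32.7% held a GC box on either strand. Among protein-coding genes with a promoter entry, the share with a GC box was 66.5% of 7841 genes with a shared gene-end region, 51.9% of 1657 with a replicate 3 region only, and 24.2% of 7994 with no replicate 3 region. The *Adamts1* window held 3 GC boxes, from -147 to -142, -76 to -71, and -25 to -20 counted from the first transcribed base as 0, and a TATA box from -32 to -27. *Mmp14* held 2 GC boxes back to back, from -19 to -14 and from -13 to -8. *Timp3* had 1 on the opposite strand from -15 to -10, and *Timp1* 1 on the opposite strand from -8 to -3. The *Adamts1* TATA box was the only one among the 9 windows, against 12.4% of all windows. The AP-1 motif (TGANTCA, in 6.75% of all windows), the ETS motif (CCGGAAG, 6.91%), the GATA motif (AGATAA, 9.99%), and the NF-κB consensus (3.90%) had no match on either strand in any of the 9 windows. No matches of these motifs overlapped each other. A match is a match of letters only and does not show binding. The GC content of the windows was 65.6% for *Adamts1* and *Timp3*, 68.0% for *Timp2*, 63.6% for *Mmp15*, 62.0% and 61.2% for the 2 windows of *Mmp23*, 55.2% for *Mmp14*, 54.4% for *Timp1*, and 44.8% for *Mmp8*, with a median of 52.4% over all windows.

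*Adamts1* (gene ID 11504, chromosome 16, 85793827 to 85803113, minus strand) carried the strongest H3K27ac of the set in replicate 2. Its highest replicate 2 peak, at 85802386 to 85803541, covered the 5′ end with a fold enrichment of 43.3, which ranked at the 99.1st percentile of that list. In replicate 3, a single peak of 4990 bp at 85799998 to 85804987 covered the 5′ end with a fold enrichment of 45.3, at the 90.1st percentile. Only 10 of the 64498 replicate 3 peaks, this one included, were at least as wide. The summits of both peaks lay almost at the same base, at -57 bp from the 5′ end in replicate 2 and -56 bp in replicate 3.

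Under that wide peak, replicate 2 had 5 separate peaks. The peak upstream of the gene at 85804029 to 85804781 had a fold enrichment of 19.7. Those in the gene body were at 85802070 to 85802322 with 8.81, at 85800727 to 85801763 with 29.8, and at 85799973 to 85800163 with 5.62. By its own position the second of these 3 lay 1350 bp from the 5′ end and the third 2950 bp, so replicate 2 counted alone had distal peaks in *Adamts1*, whereas the joined region counted as gene end. A second shared region lay at the 3′ end, at 85793018 to 85793697, enriched 4.27-fold in replicate 2 and 7.71-fold in replicate 3. At least 2 shared gene-end regions were found at 4.54% of protein-coding genes. *Adamts1* kept only 1 shared region at a q-value of 1e-05 or less or with equal numbers of peaks in both lists, and 0 with a reciprocal overlap of 50%. A further 11 regions had a replicate 3 peak only, 10 of them distal, with fold enrichments of 3.58 to 8.79. Replicate 3 peaks covered 58.6% of the *Adamts1* body and replicate 2 peaks 23.8%. The replicate 3 share was at the 99.4th percentile of protein-coding genes, whose median was 1.32%. The *Adamts1* body is 9287 bp long, and part of the 4990 bp peak over the 5′ end lies in it. Genes of all lengths were ranked together for this percentile. None of the *Adamts1* regions lay within 1 kb of another protein-coding gene.

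*Timp3* (gene ID 21859, chromosome 10, 86300412 to 86349505, plus strand), which encodes the TIMP that stays bound to the matrix, lies inside the annotated body of *Syn3*, a neuronal synapsin gene. It was the only TIMP with a shared region. The region at its 5′ end, at 86300206 to 86301287, was enriched 6.71-fold in replicate 2, at the 22.0th percentile, and 22.5-fold in replicate 3, at the 77.4th percentile. The summits lay at 44 bp and 39 bp downstream of the 5′ end. The promoter of *Timp3* was marked in both libraries but ranked low among replicate 2 peaks. The second shared region, at 86339543 to 86340147, lay deep in the gene body, 39131 bp from the 5′ end, with fold enrichments of 12.8 in replicate 2 and 17.4 in replicate 3. Between them, in the body, replicate 3 alone had 6 peaks, with fold enrichments of 5.50 to 9.12. Another replicate 3 peak, with 4.06, lay just beyond the second shared region, and 2 lay upstream, with 9.80 at 86296171 to 86296524 and 5.86 at 86299639 to 86299917. In total, *Timp3* had 2 shared regions and 9 with a replicate 3 peak only. All these regions also lie in the *Syn3* body, and the nearest end of *Syn3* was 158486 bp or more away. Apart from those at the *Timp3* 5′ end, they cannot be assigned to one of the 2 genes by position.

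*Mmp14* (gene ID 17387, chromosome 14, 54431598 to 54442456, plus strand) had 5 shared distal regions and no shared region within 1 kb of a gene end. This split depends on the 1 kb limit. With 2.5 kb as the limit, or with regions within 1 kb joined, *Mmp14* also had a shared gene-end region. At least 2 shared distal regions were found at 18.3% of protein-coding genes. Of the 5, 2 lay in the gene body. The one at 54433159 to 54434863, 1561 bp from the 5′ end, had fold enrichments of 13.8 in replicate 2 and 33.6 in replicate 3, and the one at 54435193 to 54435954 had 7.46 and 18.6. Downstream of the gene, the region at 54446065 to 54446438 had 7.93 and 24.5. Upstream, the region at 54423500 to 54423699 had 6.10 and 8.14. The strongest region of the window, at 54426275 to 54427407, had 15.6 and 53.7 and covered an end of the neighbouring gene *Mrpl52*, which encodes a mitochondrial ribosomal protein. The other 4 shared regions did not lie within 1 kb of another protein-coding gene.

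At the gene ends of *Mmp14*, replicate 3 had 4 peaks and replicate 2 had 0. The peak over the 5′ end, at 54431306 to 54431943, had a fold enrichment of 11.1, at the 58.3rd percentile of the list, with its summit at -68 bp. The peak on its upstream side had 6.20 and the one on its downstream side 9.87, and a peak 706 bp past the 3′ end had 5.73. These 4 values are all below those of the 2 shared regions in the gene body in the same library. Among the 4717 further peaks of that library whose enrichment was within 10% of the 5′ peak's, 28.6% had a replicate 2 peak (95% Wilson interval, 27.3% to 29.9%, counting error only). A distal peak of replicate 3 only, downstream at 54449010 to 54449621, had a fold enrichment of 18.8. Of 3163 peaks like it, 75.3% had a replicate 2 peak (95% Wilson interval, 73.8% to 76.8%). *Mmp14* had 16.2 shared regions per 100 kb of window, at the 99.2nd percentile of protein-coding genes, and replicate 3 peaks covered 31.2% of its body, at the 97.7th percentile. In replicate 2 the covered share was 6.34%. The *Mmp14* body is 10859 bp long, and genes of all lengths were ranked together here too. The shared regions counted include the one over an end of *Mrpl52* and the 2 in the gene body, which lay within 1 kb of each other.

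**Figure D2:**
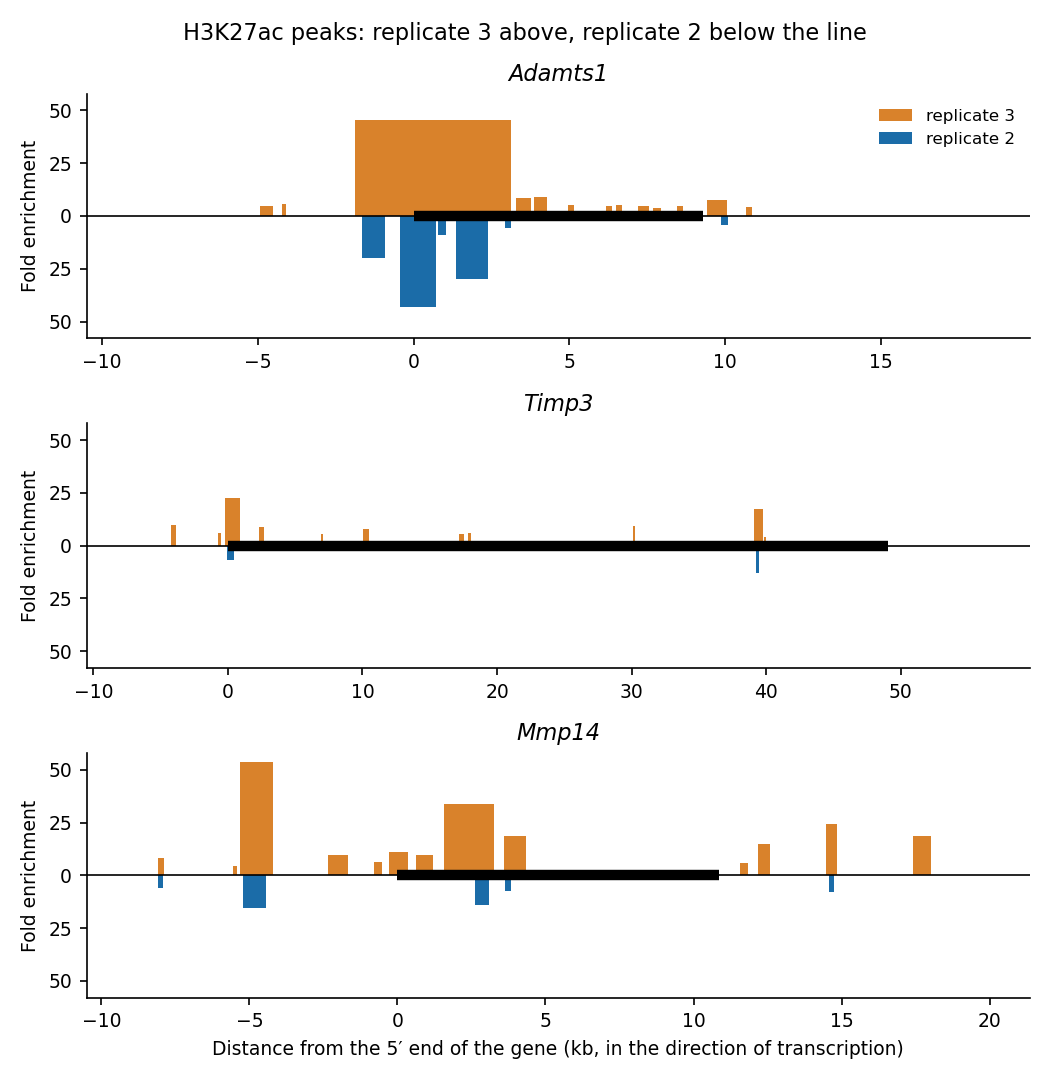
Fold enrichment of each H3K27ac peak (bar height, bar width to scale) against distance from the 5′ end in kb for *Adamts1*, *Timp3*, and *Mmp14*, with replicate 3 above and replicate 2 below the line. The black bar is the gene body. At *Adamts1* the highest peaks cover the 5′ end in both libraries (43.3 and 45.3). In the *Mmp14* window the highest peak of each library (15.6 and 53.7) lies away from the *Mmp14* ends and covers an end of *Mrpl52*. The 5′ end of *Mmp14* has a peak in replicate 3 only.

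*Timp1*, *Timp2*, and *Mmp15* each had 2 regions, 1 at the 5′ end and 1 distal, all with a replicate 3 peak only. *Timp1* (gene ID 21857, chromosome X, 20870166 to 20874737, plus strand), an inhibitor often raised in liver fibrosis, lies inside the body of the synapsin gene *Syn1*. Its peak at 20870014 to 20870343 had a fold enrichment of 15.6, at the 68.9th percentile, which was above the replicate 3 peak over the 5′ end of *Mmp14* and below that of *Timp3*. Of 3326 replicate 3 peaks of like fold enrichment, 58.7% had a replicate 2 peak (95% Wilson interval, 57.0% to 60.3%), and that of *Timp1* did not. *Timp2* (gene ID 21858, chromosome 11, 118301061 to 118355411, minus strand), which has the largest body of the set, had a peak of 6.19 at its 5′ end, at 118355294 to 118355456, where 5.49% of 7426 like peaks had a replicate 2 peak. *Mmp15* (gene ID 17388, chromosome 8, 95352296 to 95374293, plus strand) had the weakest gene-end peak, of 3.25, at 95352370 to 95352562, at the 0.695th percentile, where 3.09% of 874 like peaks had a replicate 2 peak. Replicate 3 peaks as weak as those of *Timp2* and *Mmp15* thus seldom had a replicate 2 peak. The distal peaks of the 3 genes had fold enrichments of 4.88, 5.54, and 6.34. That of *Mmp15* lay within 1 kb of an end of *Usb1*. Over the gene bodies, replicate 3 peaks covered 3.89% of *Timp1*, 0.877% of *Mmp15*, and 0.217% of *Timp2*.

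*Mmp9* and *Mmp23* had a shared region only in their flanks, beside or inside another gene. At *Mmp9* (gene ID 17395, chromosome 2, 164940326 to 164955850), the shared region at 164961601 to 164962110 had fold enrichments of 7.46 in replicate 2 and 14.0 in replicate 3 and lay 755 bp from an end of *Slc12a5*, a neuronal chloride transporter gene. In the *Mmp9* body, replicate 3 alone had a peak of 16.6 at 164953248 to 164953649, the strongest in its window. A replicate 3 peak of 9.44 at 164938672 to 164939006 lay 1320 bp from the lower end of *Mmp9*, just outside the limit for gene-end peaks, and a peak of 4.88 reached the end of *Slc12a5*. At *Mmp23* (gene ID 26561, chromosome 4, 155650655 to 155654539, minus strand), a member of the family with an unusual N-terminal membrane anchor, the only region was at 155660504 to 155661023. It was enriched 9.76-fold in replicate 2, at the 49.8th percentile, and 34.2-fold in replicate 3, at the 85.4th percentile, and lay in the body of *Mib2*, 5965 bp from *Mmp23*. Neither gene body had a shared peak, and that of *Mmp23* had no peak at all.

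*Mmp2* (gene ID 17390, chromosome 8, 92827290 to 92853421) was far from any peak. The nearest replicate 3 peak lay 469 kb from its body and the nearest replicate 2 peak 456 kb. *Mmp8* (gene ID 17394, chromosome 9, 7558429 to 7568486, plus strand), the collagenase of neutrophil granules, had its nearest replicate 3 peak at 26.7 kb and its nearest replicate 2 peak at 195 kb. *Mmp8* is 1 of 10 MMP genes that lie together on chromosome 9 between 7272514 and 7699585. None of the 10 had a peak of either library in its body or within 10 kb of it, and the whole stretch of 427 kb held 0 replicate 2 peaks and 2 replicate 3 peaks. Of the gelatinase genes, *Mmp9* thus had a peak in its body, in replicate 3, and *Mmp2* had none.

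The peaks of the 10 genes ranged from under the 1st percentile of each list to strong ones, but the highest fold enrichments of the lists, 72.0 in replicate 2 and 219 in replicate 3, lay elsewhere. In replicate 2, the median percentile of the 15 peaks was 43.5, from 0.591 for the 3′ peak of *Adamts1* to 99.1 for its promoter peak. In replicate 3, the median percentile of the 48 peaks was 43.8, from 0.695 at *Mmp15* to 92.6 in the *Mmp14* window. The 11 shared replicate 3 peaks had a median fold enrichment of 22.5 and the 37 others 5.86, with ranges of 7.71 to 53.7 and 3.25 to 18.8 that overlapped. Over the whole replicate 3 list, 1.78% of peaks within 10% of 4.06-fold had a replicate 2 peak, and 75.3% of those near 18.8-fold. The contrast was therefore not particular to the 10 genes. Gene-end and distal peaks of replicate 3 had median percentiles of 37.4 and 45.1. Fold enrichments were set by the caller in each library on its own, so they were ranked within a library and not compared between libraries.

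**Figure D3:**
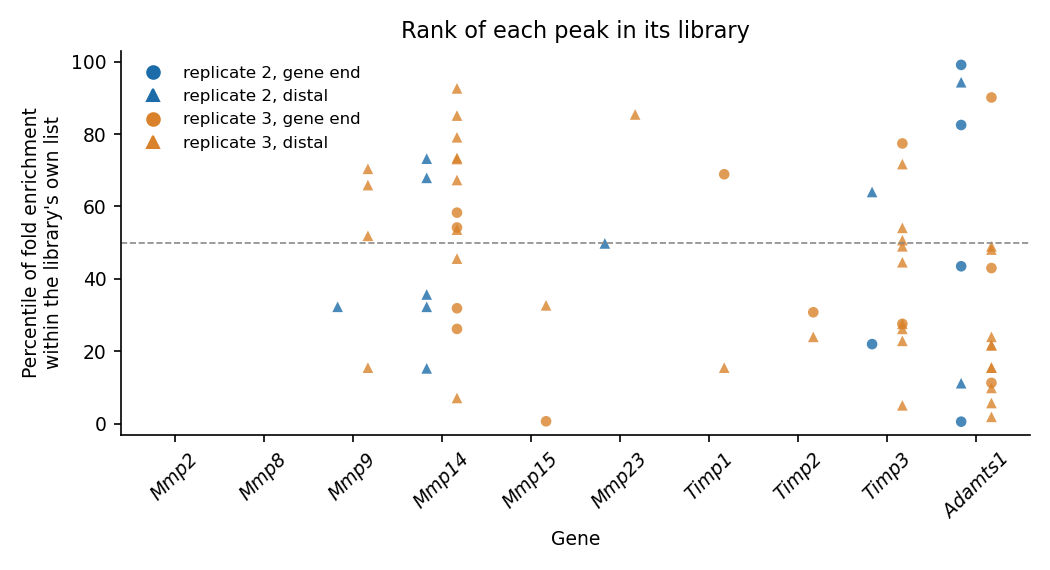
Percentile of the fold enrichment of each peak within its own library's list (y axis) for each of the 10 genes (x axis), with replicate 2 in blue, replicate 3 in orange, circles for gene-end peaks, and triangles for distal peaks. The dashed line is the 50th percentile. The highest points are the *Adamts1* promoter peak in replicate 2 (99.1) and a distal peak of the *Mmp14* window in replicate 3 (92.6). The latter peak covers an end of *Mrpl52*.

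Other genes of the pathway were counted by list. Of 17 other MMP genes, 3 had a shared gene-end region (17.6%, against 44.1% of all protein-coding genes). They were *Mmp17* and *Mmp24*, which encode membrane-anchored enzymes, and *Mmp28*. *Mmp11* had a gene-end peak in replicate 3 only, and 13 had none. *Timp4* had none. Of 18 other ADAMTS genes, 10 had a shared gene-end region (55.6%), namely *Adamts4*, *Adamts5*, and *Adamts9*, which encode proteases of proteoglycans, *Adamts13*, which encodes the protease of von Willebrand factor, and *Adamts6*, *Adamts7*, *Adamts10*, *Adamts12*, *Adamts14*, and *Adamts17*. *Adamts9* also had 4 shared distal regions and 14 with a replicate 3 peak only, counts that were not set against its length. At least 2 shared distal regions were found at 18.3% of all protein-coding genes. Of 10 genes of activation and control, 8 had a shared gene-end region (80.0%). Among them were *Furin*, whose product activates membrane-anchored MMPs, *Plat*, which encodes tissue plasminogen activator, *Reck*, which encodes a membrane-bound inhibitor of MMPs, *Bsg*, which encodes an inducer of MMPs, and the membrane protease genes *Adam10*, *Adam15*, and *Adam17*. *Plau* had a gene-end peak in replicate 3 only, and *Plg*, the plasminogen gene expressed in hepatocytes, had none. Shared distal regions were found at 4 of the 17 other MMP genes, 7 of the 18 other ADAMTS genes, and 7 of the 10 genes of activation and control. The share over all protein-coding genes was 39.3%. These lists are small, and no share was tested.

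**Figure D4:**
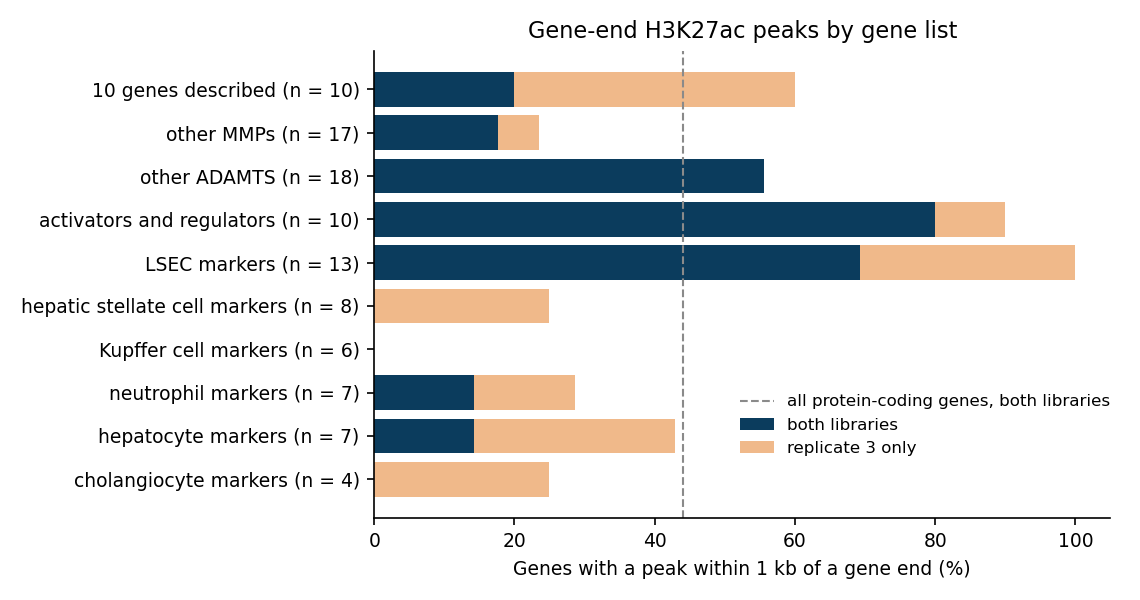
Share of genes (x axis, %) with a peak within 1 kb of a gene end in both libraries (dark) or in replicate 3 only (light) for the 10 genes described, the other genes of the pathway, and the cell type markers (y axis, with the number of genes in each list). The dashed line is the share of all protein-coding genes with a shared gene-end region, 44.1%.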

How the data were processed

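H3K27ac ChIP-Seq peaks of 2 LSEC libraries were analysed, from chromatin that was sonicated per the labels, whereas the methods name a tagmentation-based assay. The submitters' processing notes name cutadapt, BWA 0.7.17, Picard 1.67, MACS2 2.0.10, bedtools 2.27.1, and the build mm10, without settings. Peaks were called per library, not on pooled libraries, and whether the inputs entered the calls was not given in the sources used here. The deposited lists hold the fold enrichment (a ratio over local background), the −log10 p- and q-values, and a score that equals 10 times the −log10 q-value, rounded down. No deposited −log10 q-value was under 2.01. Peak numbers rise with depth and yield, and depth is unknown, so intervals cover counting error only.

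Gene bodies came from RefSeq for GRCm38, the same build as mm10, with no exons, and strands came from the promoter table. Regions were the union of overlapping peaks, and positions count from 1. Overlap functions were tested on simulated data. The 10 genes and all lists were chosen with earlier results of these data known. The genes named are the 10, their neighbours at peaks, listed genes with a gene-end peak, and, chosen after their values were seen, *Timp4* and *Plg*. A gene of these lists is not reported here by name. Alternatives were stricter or equal peak numbers, reciprocal overlap, each library alone, other windows, gene ends, and neighbours, and joining. Calculations used pandas 2.3.3 and numpy 2.4.6 under Python 3.11.15, intervals scipy 1.17.1, and plots matplotlib 3.10.9.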

Additional observations from a re-analysis of the deposited data

How the results depend on the processing

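No paired analysis was possible because both H3K27ac libraries were treated as 1 condition, and the inputs with matching numbers were left out. Of 49 recalculations of the 5 counts over all 10 genes, 33 stayed within 1.5 times the reported count and 16 did not, and of 50 recalculations for single genes 36 did and 14 did not. A reciprocal overlap of at least 50% left 0 genes with a shared gene-end region in place of 2, 0 shared gene-end regions in place of 3, 2 genes with a shared distal region in place of 4, and 4 shared distal regions in place of 8. At the *Timp3* 5′ end the peak was 460 bp wide in replicate 2 and 1082 bp in replicate 3. The highest *Adamts1* peaks over its 5′ end were 1156 and 4990 bp wide, and those at its 3′ end 211 and 664 bp. A peak narrower than 50% of the other cannot pass this limit. Why the widths differed was not tested. Without a flank, 2 genes had a shared distal region, with 3 shared distal regions and 15 of replicate 3 only, in place of 28. With 50 kb on each side these counts were 8, 29, and 60. When replicate 3 was reduced to as many top peaks as replicate 2 has, 3 distal regions of replicate 3 only were left. From 1 library alone, the genes with a gene-end region ranged from 2 to 6, the gene-end regions from 5 to 12, the genes with a distal region from 5 to 8, and the distal regions from 10 to 36, with the higher value without replicate 2 each time. Regions of replicate 3 only have no value when a library is left out. With 2.5 kb as the limit, or with regions within 1 kb joined, *Mmp14* also had a shared gene-end region, and with the 5′ end only *Adamts1* also had a shared distal region. For *Mmp2* and *Mmp9*, with no strand in the table, both ends were kept there. The second shared region of *Adamts1*, at its 3′ end, was not kept at a q-value of 1e-05 or less or with equal peak numbers, and with reciprocal overlap *Adamts1* had 0 shared regions. *Mmp2* and *Mmp8* had 0 regions with a stricter q-value, equal peak numbers, reciprocal overlap, and either library alone.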
